A study of Homo sapiens with 56 samples.

Results

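SMAD and TGF-beta pathway genes were followed across 4 lines of cutaneous T-cell lymphoma treated with cobomarsen, an oligonucleotide that inhibits the microRNA miR-155. The set holds 10 of the 19775 genes with their own probe sets on the array: the ligand TGFB1, the receptors TGFBR1 and TGFBR2, the mediators SMAD2, SMAD3, SMAD5 and SMAD4, the inhibitor SMAD7 and the repressors SKI and SKIL. They were chosen by name, and each of their 36 probe sets carries that gene as its only symbol in the array's annotation. A gene is represented by its brightest probe set across the arrays, called leading. For the members, some of the others are given beside it, and the rest are not described. All 10 leading probe sets were bright enough to be tested in every comparison, and 25 of the 36 had an average at or above the overall median.

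Total RNA was measured on 56 Affymetrix arrays in 14 groups of 4. HuT102, MJ and MyLa cells were grown with cobomarsen or left untreated and collected at day 4 and day 8, and HuT78 cells were collected at day 8 in the same 2 states. Day 4 was meant by the study to show direct targets and day 8 downstream ones. Each line descends from the malignant T cells of a single patient, and the retrovirus HTLV-1 is present in HuT102 and MJ. Controls received no oligonucleotide, so what an oligonucleotide of any sequence does and what loss of miR-155 does cannot be told apart. No concentration is given in the sources used here. Whether the 4 arrays of a group stand for separate cultures is not in the labels; the p-values reflect only how far these samples differ, which may be technical. The arrays are of bulk RNA, in which fewer cells of a kind and less RNA per cell cannot be told apart.

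TGF-beta binds the receptor TGFBR2, which recruits and phosphorylates TGFBR1. TGFBR1 phosphorylates SMAD2 and SMAD3, which enter the nucleus with SMAD4, while SMAD5 carries the signal of the related bone morphogenetic proteins (BMPs). SMAD7 blocks the receptors, and SKI and SKIL hold SMAD complexes in a repressing state. In T cells the pathway restrains proliferation and shapes regulatory and tissue-resident cells.

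The sequence that the treatment is aimed at is shown because SMAD5 and SMAD2 have been described as targets of miR-155. Mature miR-155-5p, from RefSeq on build GRCh38.p14, lies at chr21:25573983-25574006 on the plus strand. Capitals mark its seed (bases 2 to 8), which pairs with a target whose transcript holds AGCATTA when written as DNA.
hsa-miR-155-5p: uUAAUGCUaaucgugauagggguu
Of the 2370 mature human miRNAs in the same table, it was the only 1 with this seed. Transcript sequences were not analysed here, so sites in the members are not given. The host transcript of miR-155 had its own probe set, with signals of 10496 to 32332 in the arrays of HuT102, MJ and MyLa and of 55.2 or less in those of HuT78.

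Values are MAS5 signals, which are linear and scaled alike in every array (trimmed mean 500.1). Changes are on the log2(signal + 16) scale with their standard error (SE). In limma, all groups share 1 estimate of spread for each probe set. A probe set was tested if its average in the arrays compared was at or above the overall median (signal 74.0), and called where the limma p, adjusted by Benjamini-Hochberg over all probe sets tested, fell below 0.05. Arrays within a group correlated at 0.957 to 0.980. Treated arrays 1 and 3 of HuT78 and treated array 3 of MyLa at day 4 correlated at least as closely with the untreated arrays of their line and day as with their own group, and the counts without them are given with the results. Of the T cell markers checked, CD3D read at least 4567 in every array, CD247 at least 2670.5 and CD3G at least 473.8. CD3E was at 62.5 to 206.9 in MyLa and 115.2 to 273.0 in HuT102, against at least 751.7 in HuT78 and 1038.6 in MJ. CD2 was at 17.6 to 69.6 in HuT78, CD5 at 6.4 to 68.7 and CD4 at 12.1 to 145.8 in MyLa. Of the lymphoma and activation markers, CCR4 read at least 549.9 and TOX at least 1384.4 in every array. IL2RA was at 212.1 to 320.1 in HuT78 and at least 8178.5 elsewhere. PLS3 was at 2232.7 to 2703.2 in MJ and 39.1 or below elsewhere. Of 3 monocyte markers, CD14 and LYZ were at 82.8 or below in every array, while CSF1R reached 282 in HuT102, 183 in MyLa and 171 in MJ. The keratinocyte markers KRT5 and KRT14 stayed at 92.9 or below. Of 3 fibroblast markers, DCN and LUM had group means of at most 121 and 43.3, while PDGFRA reached a group mean of 791 in HuT102. Of the B cell markers with a probe set, MS4A1 averaged 34.0 to 97.7 over the groups and CD79A 280 to 412. Their part in the results was not tested.

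Of the 10 leading probe sets, only that of SMAD5 was called in the same direction in all 6 comparisons of HuT102, MJ and MyLa. TGFBR2 was called in all 6 in differing directions, and SMAD3 in the 4 of HuT102 and MJ. The share of all tested genes called in all 6 was not counted. Outside the members, FOXO3 and COL1A1 were also called higher in all 6. At day 4, 3 of the 10 members were called in HuT102, 2 higher (against 9.72% of all tested genes) and 1 lower (12.3%). At day 8 in that line 6 were called, 3 higher (18.6%) and 3 lower (20.8%). In MJ 5 were called at day 4, 3 higher (12.7%) and 2 lower (13.8%), and 6 at day 8, 3 higher (14.8%) and 3 lower (18.1%). In MyLa 6 were called at day 4, 3 higher (13.1%) and 3 lower (12.6%), and 5 at day 8, 3 higher (23.2%) and 2 lower (18.0%). In HuT78 SMAD2 was called higher (9.78%) and TGFB1 lower (10.4%). The members moved in both directions: their median log2 change lay between -0.14 and 0.05 over the 7 comparisons, beside -0.05 to 0.02 for all tested genes. Fitted to the arrays of the line alone, 8 members were called in MJ at day 4 (35.2% of all tested genes in either direction) and 0 in HuT78 (0.00913%), where 3 members had an unadjusted limma p under 0.05. The 8 in MJ were the 5 of the shared fit with SMAD2, SKI and TGFB1. In MyLa at day 4 the same 6 members were called without treated array 3 (12.1% of all tested genes higher and 11.6% lower). In HuT78, 3 members were called without treated array 1, SMAD2 higher (14.6%) and TGFB1 and SKI lower (17.0%). Without treated array 3, SMAD2 was called higher (6.09%) and TGFB1 lower (7.88%), and without treated array 4 there was only TGFB1, called lower (4.53%, against 5.73% higher).

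**Figure D1:**
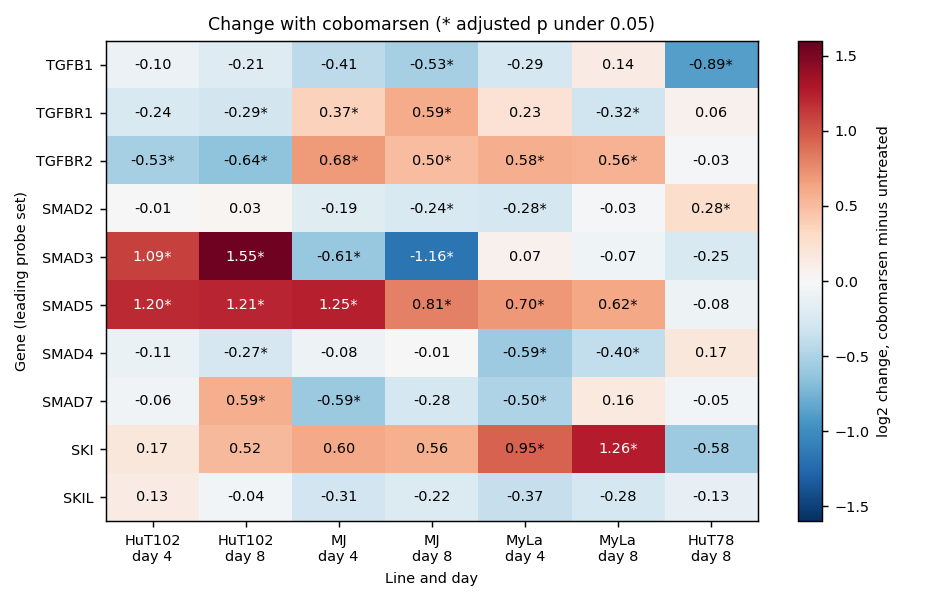
Log2 change with cobomarsen (colour and printed value, cobomarsen minus untreated) of the leading probe set of each member (rows) in each line and day (columns), with 4 arrays a group; an asterisk marks a limma adjusted p under 0.05. SMAD5 is called higher in the 6 columns of HuT102, MJ and MyLa, and SMAD3 is called higher in HuT102 and lower in MJ.

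SMAD5, the BMP mediator, was higher with cobomarsen at both days in each of HuT102, MJ and MyLa. In HuT102 its signals at day 4 were 2085, 1926, 1552 and 2362 in untreated arrays and 4171, 4438, 4775 and 4686 with cobomarsen. At day 8 they were 1746, 2188, 1716 and 1891 without and 4367, 3522, 4505 and 5268 with the inhibitor. Every treated array lay above every untreated one, with changes of 1.20 ± 0.14 (limma adjusted p = 3.13e-09) and 1.21 ± 0.14 (5.16e-10).

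MJ started from lower SMAD5 levels. Untreated arrays read 277, 295, 506 and 456 at day 4, against 877, 721, 989 and 1059 with cobomarsen. At day 8 the untreated arrays read 612, 617, 592 and 645 and the treated ones 1019, 1223, 1118 and 1029. The groups did not overlap at either day, and the changes were 1.25 ± 0.14 (limma adjusted p = 5.80e-10) and 0.81 ± 0.14 (7.15e-06).

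In MyLa the untreated arrays read 595, 496, 508 and 520 at day 4 and the treated ones 785, 870, 1048 and 786. At day 8 the readings were 562, 567, 528 and 574 without and 856, 804, 780 and 1048 with cobomarsen. All treated arrays were again the higher ones, with smaller changes of 0.70 ± 0.14 (limma adjusted p = 0.000159) and 0.62 ± 0.14 (0.000355). In HuT78 the groups overlapped, at 1086, 966, 1088 and 1165 without and 1029, 1211, 724 and 1169 with cobomarsen (-0.08 ± 0.14, limma adjusted p = 0.765).

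**Figure D2:**
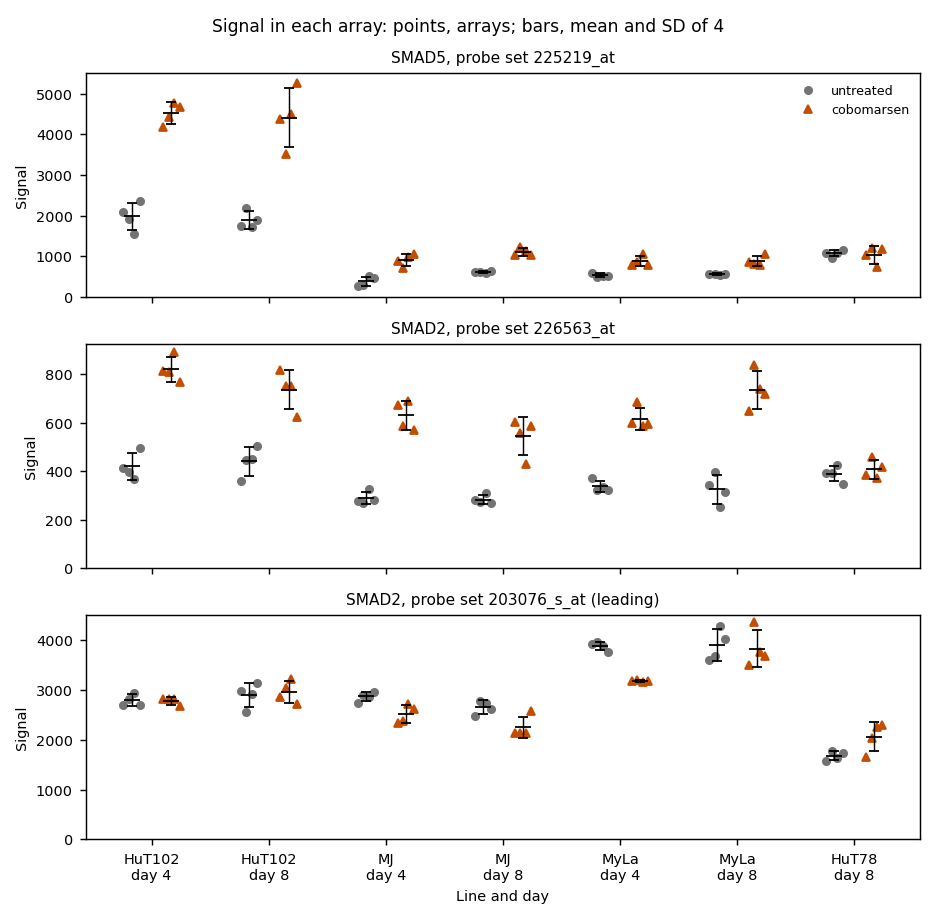
Signal (linear axis from 0) of SMAD5 and of a pair of SMAD2 probe sets in each array, by line and day; grey circles are untreated arrays, orange triangles cobomarsen arrays, and bars the mean and SD of 4. SMAD5 and the SMAD2 probe set 226563_at are higher in all treated arrays of HuT102, MJ and MyLa, while the leading SMAD2 probe set does not rise there.

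The other SMAD5 probe sets differed in how far they followed. Probe set 235451_at was called higher in the same 6 comparisons, with log2 changes of 1.69, 1.69, 0.97, 0.99, 0.83 and 0.91 in the order HuT102, MJ and MyLa with day 4 first, and 225223_at likewise with 1.64, 1.38, 1.08, 1.01, 0.67 and 0.73. Probe set 205187_at was called higher in HuT102 (1.42 and 1.02) and MJ (0.61 and 0.63). Probe set 205188_s_at was called higher in HuT102 (1.04 and 1.08) and lower in MyLa at day 4, where it fell by 0.58 ± 0.15 (limma adjusted p = 0.00385) with overlapping groups. None of the 5 was called in HuT78.

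The probe sets of SMAD2, a mediator of TGF-beta and activin, did not move together. The leading one, 203076_s_at, was near level in HuT102 (-0.01 and 0.03). It was called lower in MJ at day 8, at 2479, 2776, 2744 and 2605 untreated against 2136, 2136, 2143 and 2569 treated (-0.24 ± 0.08, limma adjusted p = 0.0119). There the highest treated array lay within the untreated range. In MyLa at day 4 it read 3923, 3957, 3880 and 3753 untreated against 3184, 3201, 3151 and 3179 treated, without overlap (-0.28 ± 0.08, limma adjusted p = 0.00375).

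Probe set 226563_at of the same gene rose where SMAD5 rose. In HuT102 it read 413, 398, 370 and 498 untreated and 812, 810, 893 and 768 treated at day 4 (0.95 ± 0.11, limma adjusted p = 4.21e-09). In MJ at day 4 it read 277, 269, 329 and 283 untreated and 676, 588, 690 and 570 treated (1.08 ± 0.11, 5.81e-11 in limma, adjusted). In MyLa at day 8 it read 342, 395, 252 and 315 untreated and 651, 840, 740 and 719 treated (1.15 ± 0.11, 5.07e-12 in limma, adjusted). In none of the 6 comparisons of these lines did the groups overlap, and the other changes were 0.72 in HuT102 at day 8, 0.90 in MJ at day 8 and 0.84 in MyLa at day 4. In HuT78 it changed by 0.06 ± 0.11, with overlapping groups. The annotation assigns both probe sets to SMAD2 alone, and which transcripts each reads was not analysed here.

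Of the other SMAD2 probe sets, 203075_at was called lower in MJ at both days (-0.20 and -0.25) and higher in MyLa at day 8 (0.36) and HuT78 (0.20). Probe set 203077_s_at was called lower in MJ at day 8 (-0.33) and 235598_at higher in MyLa at day 8 (0.61). The sixth, 239271_at, was too dim to test in any comparison. Over the 14 group means, 226563_at correlated with the leading probe set at 0.05, and 203075_at at 0.70; these points share lines and arrays and are a description.

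**Figure D3:**
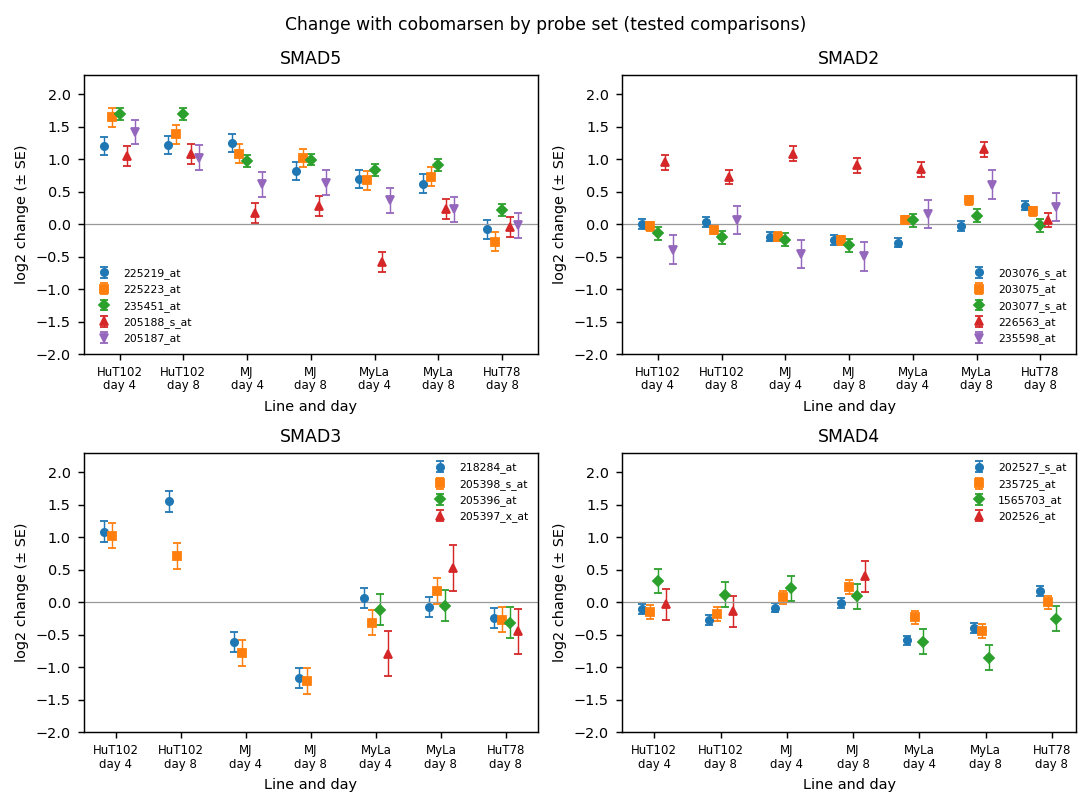
Log2 change with cobomarsen (points, with SE bars) of every tested probe set of SMAD5, SMAD2, SMAD3 and SMAD4, by line and day. SMAD5 probe sets lie mostly above 0 outside HuT78, 1 of the SMAD2 probe sets (226563_at) lies apart from the others, and the brighter SMAD3 probe sets lie above 0 in HuT102 and below 0 in MJ.

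SMAD3, the other TGF-beta mediator, rose in HuT102 and fell in MJ. In HuT102 it read 194, 184, 161 and 174 untreated and 447, 429, 313 and 409 treated at day 4. At day 8 the readings were 201, 203, 161 and 247 against 470, 690, 581 and 785. The treated arrays stood clear of the untreated ones at both days, with changes of 1.09 ± 0.16 (limma adjusted p = 3.50e-07) and 1.55 ± 0.16 (7.54e-12).

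In MJ, SMAD3 moved the other way. It read 246, 218, 239 and 237 untreated and 198, 162, 106 and 140 treated at day 4 (-0.61 ± 0.16, limma adjusted p = 0.00231). At day 8 it read 195, 262, 235 and 292 untreated and 103, 71.7, 156 and 84.5 treated (-1.16 ± 0.16, limma adjusted p = 3.03e-08). Within each day, all treated arrays of MJ lay below all untreated ones. The next probe set, 205398_s_at, was called in the same directions, at 1.02 and 0.71 in HuT102 and -0.78 and -1.21 in MJ, where its treated mean at day 8 was just under the testing limit.

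MyLa and HuT78 carried far more SMAD3, between 952 and 1914 in every array, and neither was called: the changes were 0.07 and -0.07 in MyLa (each ± 0.16) and -0.25 ± 0.16 in HuT78. The day 8 effect on SMAD3 differed between the 4 lines (limma moderated F-test, adjusted p = 9.13e-14). The same test was passed by 9 of the 10 members, against 64.2% of all tested genes, and SKIL was the 1 that missed it (adjusted p = 0.742).

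TGFBR2, the ligand-binding receptor, fell in HuT102 and rose in MyLa and, from a far lower level, in MJ. In HuT102 it read 1940, 2049, 2034 and 1768 untreated and 1410, 1318, 1253 and 1385 treated at day 4. At day 8 it read 2085, 2040, 2161 and 2116 against 1292, 1389, 1157 and 1548. Groups did not overlap, and the changes were -0.53 ± 0.12 (limma adjusted p = 0.000898) and -0.64 ± 0.12 (2.40e-05).

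In MyLa it read 278, 281, 298 and 357 untreated and 609, 464, 400 and 398 treated at day 4, and 401, 356, 320 and 331 against 508, 582, 489 and 519 at day 8. Within each day all treated arrays were higher (0.58 ± 0.12, limma adjusted p = 0.000230, and 0.56 ± 0.12, 0.000214). In MJ the receptor was near the testing limit, at 52.1, 90.9, 77.8 and 91.2 untreated against 136, 98.6, 164 and 138 treated at day 4, and 87.1, 113, 86.2 and 109 against 139, 139, 156 and 149 at day 8. Groups were apart there too (0.68 ± 0.12, limma adjusted p = 1.72e-05, and 0.50 ± 0.12, 0.00104). With the arrays of MJ alone the day 8 call was lost (adjusted p = 0.0726 in limma). HuT78 held the highest level, 3451 to 3737 untreated, and did not move (-0.03 ± 0.12, limma adjusted p = 0.902). The second TGFBR2 probe set was too dim to test.

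TGFBR1, the signalling receptor, rose in MJ. Its readings were 2871, 3051, 3440 and 2874 untreated against 3984, 3847, 3869 and 4113 treated at day 4, and 3383, 3169, 3266 and 3003 against 4555, 4843, 5437 and 4588 at day 8. No treated array fell in the untreated range (0.37 ± 0.10, limma adjusted p = 0.00292, and 0.59 ± 0.10, 2.21e-06). It was called lower in HuT102 at day 8, where it read 5567, 5586, 5787 and 5485 untreated against 4409, 5440, 4104 and 4418 treated (-0.29 ± 0.10, limma adjusted p = 0.0137), a call lost without treated array 3 (adjusted p = 0.0665 in limma). In MyLa it changed by 0.23 ± 0.10 at day 4, which was not called, and fell by 0.32 ± 0.10 at day 8 with overlapping groups (limma adjusted p = 0.00658). Without untreated array 4 the latter call was lost (adjusted p = 0.0538 in limma). The difference between these MyLa days was itself called (-0.56 ± 0.14, limma adjusted p = 0.00374). Of its dimmer probe sets, 236561_at was called higher in MJ at day 4 (0.56) and lower in MyLa at day 8 (-0.69), and 206943_at in no comparison of treated with untreated arrays.

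**Figure D4:**
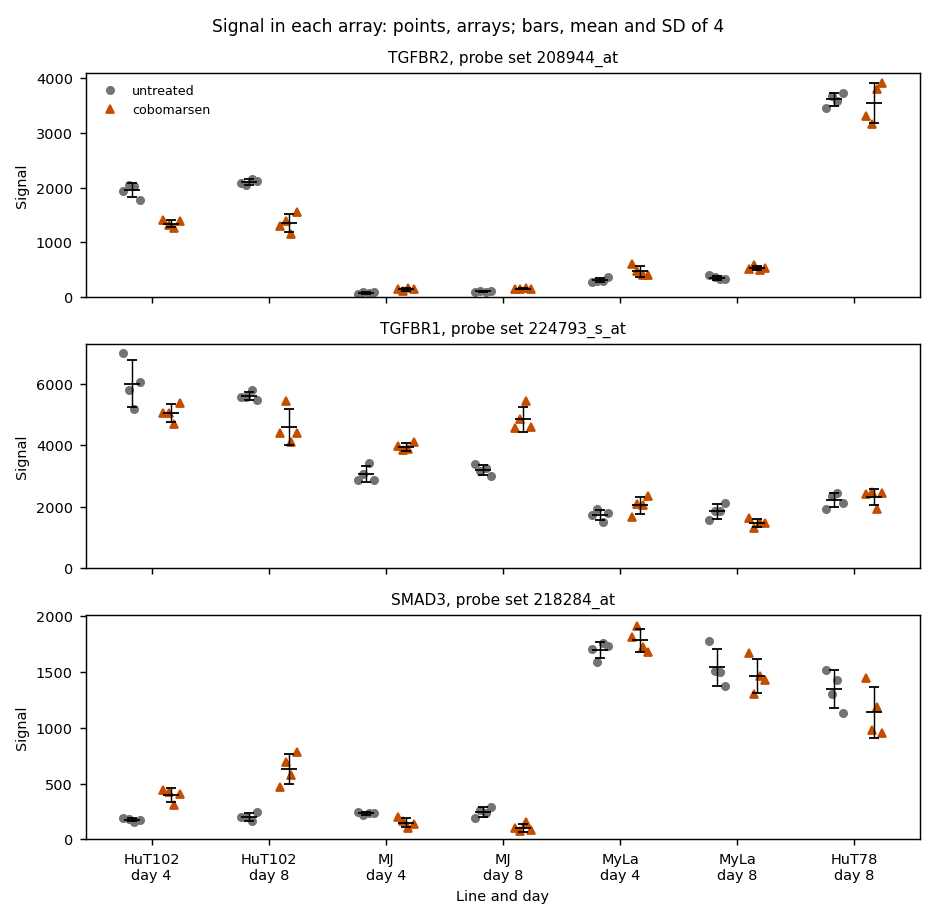
Signal (linear axis from 0) of TGFBR2, TGFBR1 and SMAD3 leading probe sets in each array, by line and day; grey circles are untreated arrays, orange triangles cobomarsen arrays, and bars the mean and SD of 4. TGFBR2 is highest in HuT78 and lowest in MJ, and SMAD3 is at 952 or more in MyLa and HuT78 and at 785 or less in HuT102 and MJ.

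TGFB1, the ligand, was called in 2 comparisons. In MJ it read 1894, 1872, 1696 and 1704 untreated and 1273, 1377, 1259 and 1453 treated at day 4, without overlap but not called (-0.41 ± 0.18, limma adjusted p = 0.0869). With the arrays of MJ alone it was called lower there (adjusted p = 0.000136 in limma). At day 8 it read 1877, 1978, 1796 and 1737 untreated against 1264, 1385, 1342 and 1129 treated (-0.53 ± 0.18, limma adjusted p = 0.0204). That call was lost without untreated array 2 (adjusted p = 0.0550 in limma) or treated array 4 (0.0682).

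In HuT78 TGFB1 read 2816, 2700, 2595 and 2292 untreated and 2597, 821, 2113 and 836 treated. Treated arrays 2 and 4 were at less than any other HuT78 array, and the remaining pair overlapped or neared the untreated range (-0.89 ± 0.18, limma adjusted p = 0.000859). With any 1 array left out the change lay between -1.18 and -0.635 and the call held. The same arrays were the lowest of the treated HuT78 group for SKI, at 216 and 126 beside 632 and 417, and for the SMAD3 probe set 205398_s_at, at 602 and 542 beside 1042 and 843. Treated array 1 correlated with the untreated arrays at 0.974 to 0.978 and with its own group at 0.967 to 0.971. Treated array 2 had the highest 3' to 5' signal ratios of the GAPDH (0.990) and ACTB (1.286) control probe sets among all 56 arrays. Treated array 4 had the lowest median signal (56.4), with treated array 3 at 57.0. Whether these array traits bear on the TGFB1 change was not tested. With the arrays of HuT78 alone neither of the line's calls held (adjusted p = 0.188 for TGFB1 and 0.199 for SMAD2 in limma). The SMAD2 call (0.28 ± 0.08, limma adjusted p = 0.00780) was also lost without treated array 4 (0.0638).

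SMAD4, the shared partner of the mediators, fell in MyLa. At day 4 it read 2752, 2765, 2664 and 2374 untreated and 2005, 1675, 1713 and 1625 treated (-0.59 ± 0.08, limma adjusted p = 1.86e-08). At day 8 it read 2743, 2372, 2567 and 2957 untreated and 2186, 1915, 2024 and 1908 treated (-0.40 ± 0.08, 2.14e-05). The groups were apart at both days. In HuT102 it was called lower at day 8 (-0.27 ± 0.08, limma adjusted p = 0.00366) with overlapping groups, and in MJ the changes were -0.08 and -0.01. In HuT78 it read 1117, 1118, 1146 and 1118 untreated and 1267, 1297, 1286 and 1239 treated, without overlap but not called (0.17 ± 0.08, limma adjusted p = 0.104). In MyLa 1565703_at was also called lower at both days (-0.60 and -0.85), and 235725_at at day 8 (-0.44).

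SMAD7, which shuts off the receptors, changed with the day. In HuT102 it read 673, 863, 919 and 867 untreated and 711, 845, 831 and 792 treated at day 4, with full overlap (-0.06 ± 0.12). At day 8 it read 657, 631, 657 and 785 untreated and 1139, 976, 916 and 1101 treated, all higher (0.59 ± 0.12, limma adjusted p = 0.000135). The day difference was 0.64 ± 0.18 (limma adjusted p = 0.0176), and it narrowly missed the threshold without the treated day 4 array 1 (0.0503).

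In MyLa, SMAD7 fell at day 4, from 1059, 1116, 1090 and 1044 to 866, 878, 634 and 685 (-0.50 ± 0.12, limma adjusted p = 0.00204). At day 8 the groups overlapped (0.16 ± 0.12, limma adjusted p = 0.326), and the day difference was 0.66 ± 0.18 (limma adjusted p = 0.00737). In MJ it fell at day 4, from 588, 611, 611 and 642 to 416, 465, 371 and 359 (-0.59 ± 0.12, limma adjusted p = 0.000205). The day 8 value in MJ was -0.28 ± 0.12, not called, and the day difference of 0.31 ± 0.18 was not called either. Over the members a day difference was called for 1 in HuT102 (6.64% of all tested genes), 0 in MJ (0.897%; SMAD3 and SMAD5 had unadjusted limma p of 0.0159 and 0.0347) and 2 in MyLa (16.3%).

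SKI, a repressor of SMAD complexes, rose in MyLa. It read 220, 234, 107 and 234 untreated and 509, 328, 293 and 436 treated at day 4 (0.95 ± 0.26, limma adjusted p = 0.00538). At day 8 it read 223, 203, 187 and 126 untreated and 536, 376, 382 and 557 treated (1.26 ± 0.26, 0.000113). Treated arrays were all higher at both days, but the day 4 call was lost without untreated array 3, the lowest (0.70, limma adjusted p = 0.0565). In MJ the changes were 0.60 and 0.56 and in HuT102 0.17 and 0.52, none of them called. With the arrays of MJ alone SKI was called higher at day 4 (adjusted p = 0.00901 in limma). In HuT78 it read 493, 418, 489 and 397 untreated and 632, 216, 417 and 126 treated, not called (-0.58 ± 0.26, limma adjusted p = 0.126), though called lower without treated array 1. SKIL, the related repressor, was called in none of the 7 comparisons by its leading probe set, with changes from -0.37 to 0.13. Its dimmer probe set 217591_at was called lower in MyLa at day 4 (-1.11 ± 0.27, limma adjusted p = 0.00159) and in HuT102 at day 8 (-0.72 ± 0.27, 0.0326). In MyLa at day 4 its treated mean was below the testing limit, so it was tested only through the untreated arrays.

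The untreated lines differed in both receptors. TGFBR2 at day 8 ranked HuT78 (3451 to 3737), HuT102 (2040 to 2161), MyLa (320 to 401) and MJ (86.2 to 113), with no overlap between neighbours and log2 steps of 0.78 ± 0.12, 2.53 ± 0.12 and 1.68 ± 0.12 (largest limma adjusted p = 1.50e-07). TGFBR1 was highest in HuT102 (5485 to 5787), then MJ (3003 to 3383), HuT78 (1935 to 2432) and MyLa (1552 to 2135). HuT78 and MyLa overlapped there, though the difference of 0.26 ± 0.10 was called (limma adjusted p = 0.0152). MJ cells held the least TGFBR2 and the second highest TGFBR1.

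SMAD3 formed a high pair, MyLa (1378 to 1777) and HuT78 (1129 to 1520), and a low pair, MJ (195 to 292) and HuT102 (161 to 247). Differences within a pair were not called (0.20 ± 0.16 and 0.26 ± 0.16), and HuT102 against MyLa was at -2.84 ± 0.16 (limma adjusted p = 1.76e-22). The low pair are the lines with HTLV-1, and the pairs also match the number series of the sample titles. Line, virus and whatever the numbers mark cannot be told apart here. SMAD5 was highest in HuT102 (1716 to 2188), then HuT78 (966 to 1165), MJ (592 to 645) and MyLa (528 to 574). The last neighbours were not called (0.14 ± 0.14). TGFB1 was lowest in HuT102 (789 to 932), followed by MJ (1737 to 1978), MyLa (1988 to 2773) and HuT78 (2292 to 2816), where neither MJ and MyLa nor MyLa and HuT78 were called apart.

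SMAD2, SMAD4, SMAD7 and SKIL were all lowest in HuT78 and highest in MyLa. SMAD2 averaged 1677 in HuT78 and 3897 in MyLa, SMAD4 1125 and 2660, SMAD7 396 and 857, and SKIL 263 and 481. SKI was lowest in MyLa (126 to 223) and highest in HuT78 (397 to 493), with HuT102 at 190 to 302 and MJ at 316 to 417. Neighbours were not called apart for SMAD2 (HuT102 and MJ), SMAD7 (HuT102 and MJ), SKI (MyLa and HuT102, HuT102 and MJ, MJ and HuT78) and SKIL (MyLa, HuT102 and MJ).

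Members called between untreated lines numbered 5 for HuT102 against MJ (57.1% of all tested genes were called), 8 for HuT102 against MyLa (68.8%), 10 for HuT102 against HuT78 (73.4%), 7 for MJ against MyLa (65.2%), 9 for MJ against HuT78 (68.9%) and 8 for MyLa against HuT78 (74.7%). Numbers in the sample titles fall in one series for HuT102 and MJ and another for MyLa and HuT78, so differences across these pairs cannot be told apart from whatever the numbers mark. Between day 8 and day 4 of untreated cells 0 members were called in HuT102 (8.14%; SMAD4 and SMAD7 had unadjusted limma p of 0.0230 and 0.0329), 2 in MJ (1.44%) and 0 in MyLa (12.1%; SMAD7 had 0.0107). In MJ these were SMAD5 (0.71 ± 0.14, limma adjusted p = 0.00328) and SMAD4 (0.28 ± 0.08, 0.0433), and the SMAD4 call was lost when any of 6 of the 8 arrays was left out (0.0659 to 0.244).

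Over the 14 group means the genes most like SMAD5 in pattern were SLC35A1 (r = 0.983), FAM210B (0.967) and SUMF1 (0.955). TGFBR2 was most like PTP4A2 (0.971), ZBTB34 (0.961) and PRKCQ (0.957), and TGFBR1 most like GPR63 (0.977), FKBP9 (0.974) and TENT5A (0.968). SMAD3 was closest to FZD6 (0.957), and SMAD4 to ARPP19 (0.934) and then to the member SKIL (0.928). These Pearson values share lines and arrays and were picked as the highest of all genes, so they are a description only.

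Other pathway genes were read from lists of ligands, receptors, partners, modifiers and induced genes, some of which appear on more than 1 list. They are given by their leading probe set only. Their HuT78 calls rest on the spread shared by all groups. With the arrays of HuT78 alone, 0.00913% of all tested genes were called. Of the other ligands and latency genes, between 0 and 4 were called higher and 1 or 2 lower in each comparison, with 7 to 15 of 18 tested. Over the same 7 comparisons 9.72% to 23.2% of all tested genes were called higher and 10.4% to 20.8% lower, and the counts of this and the next 3 lists are to be read against those shares. BMP2, a ligand of the SMAD5 branch, rose in HuT102 and MJ. In MJ at day 8 it read 1003, 1089, 1114 and 1060 untreated and 5063, 5269, 5136 and 4945 treated (2.24 ± 0.22, limma adjusted p = 3.08e-12). It rose by 1.23 ± 0.22 at day 4 in MJ, and in HuT102 from 115, 85.0, 81.6 and 68.4 to 313, 332, 158 and 247 at day 4 (1.40 ± 0.22, limma adjusted p = 1.84e-06) and by 1.71 ± 0.22 at day 8. No treated array of these lines fell in the untreated range, and in MyLa and HuT78 BMP2 read 30.3 or less in every array.

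LTBP1, which anchors latent TGF-beta in the matrix, rose in MyLa at both days (0.96 and 1.45) and in MJ at day 4 (0.71). ITGB8, a subunit of an integrin that activates TGF-beta, rose in HuT102 (1.33 and 1.63) and was called lower in HuT78 (-1.02). Its untreated mean in HuT102 at day 4 was at the testing limit. INHBA, which encodes an activin subunit, fell in MyLa (-1.44 and -1.55) and rose in MJ at day 8 (0.82). FURIN, a protease that processes the TGF-beta precursor, was called lower in HuT102 (-0.90 and -0.60) and in MyLa at day 4 (-0.84). Its groups overlapped in HuT102 at day 8 and in MyLa at day 4.

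Of the other receptors, 0 to 3 of 7 to 9 tested were called higher and 0 to 3 lower. TGFBR3, the co-receptor betaglycan, fell in 5 of the 7 comparisons, most in MyLa. There it read 1890, 1894, 1889 and 1932 untreated against 706, 746, 822 and 630 treated at day 4 (-1.38 ± 0.07, limma adjusted p = 4.44e-21), and changed by -1.25 ± 0.07 at day 8. In MJ it changed by -0.54 and -0.36, in HuT102 by -0.29 and, not called, -0.16, and in HuT78 by 0.08, not called. ACVR1B, an activin receptor that signals through SMAD2 and SMAD3, was called higher in HuT102, from 76.1, 66.2, 77.4 and 61.8 to 153, 135, 96.0 and 121 at day 4, where it was tested only through the treated arrays, and by 0.59 at day 8, and lower in MJ (-0.44 and -0.71). FKBP1A, which binds TGFBR1, was called lower in HuT102 (-0.22, with overlapping groups, and -0.31) and in MyLa at day 4 (-0.39). LDLRAD4, which restrains SMAD2 and SMAD3 phosphorylation, was higher in HuT102 at day 8 (0.57) and MyLa at day 4 (0.61) and lower in MJ at day 8 (-0.49). BAMBI, a decoy receptor, was called higher in MJ at day 8, at 92.2, 28.3, 90.0 and 53.3 untreated and 166, 193, 199 and 187 treated (limma adjusted p = 0.00210), where again only the treated mean was above the testing limit.

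Among partners of the SMADs, 0 to 6 of 10 to 12 tested were called higher and 1 or 2 lower. FOXO3 rose in all 6 comparisons of HuT102, MJ and MyLa, by 0.29 to 1.65, and not in HuT78 (-0.01). FOXO1 was higher in HuT102 at day 8 (0.94) and in MyLa at day 8 (1.01). It was called lower in MJ (-0.42 and -1.05) and, with overlapping groups, in MyLa at day 4 (-0.36). RUNX3, a partner in T cells, was called higher in MyLa (0.52 and 0.51) and in MJ at day 4 (0.33). With overlapping groups, it was also called higher in HuT102 at day 8 (0.22). It was called lower in HuT78 (-0.34), where treated arrays 2 and 4 were its lowest (4020 and 4427). TGIF1, a repressor of SMAD targets, was called higher in MJ (0.36 and 0.56) and in HuT102 at day 4 (0.60). In MJ at day 4 its groups overlapped and its untreated mean was at the testing limit. SNW1, a coactivator of SMADs, was called lower in MJ (-0.18 and -0.21) and in MyLa at day 8 (-0.40).

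Of the ubiquitin and phosphatase genes, 0 to 3 of 11 to 13 tested were called higher and 0 to 3 lower. UCHL5, a deubiquitinase that stabilizes TGFBR1, fell in HuT102 (-0.45 and -0.68) and MJ (-0.47 and -0.55) and rose in MyLa at day 8 (0.29). USP11, another deubiquitinase of TGFBR1, rose in MJ (0.51 and 0.48) and in MyLa at day 8 (1.03) and fell in HuT102 at day 8 (-0.37). SMURF2, a ligase that SMAD7 brings to the receptor, was called higher in MJ (0.34 and 0.47). It was also called higher in HuT102 at day 4 (0.40), where the groups overlapped. NEDD4L, another ligase, rose in HuT102 (0.94 and 1.76). PPM1A, a phosphatase of SMAD2 and SMAD3, was called lower in MJ (-0.39 and -0.76) and in HuT78 (-0.40).

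Genes known to be induced by TGF-beta moved in both directions. In HuT102 at day 8, 7 of 14 tested were called higher (18.6% of all tested genes) and 1 lower (20.8%), with a median of 0.26 against 0.00 for all tested genes, and in MJ at day 8, 5 of 15 were higher (14.8%) and 5 lower (18.1%), with a median of -0.14 against -0.02. In HuT78 1 of 13 was higher (9.78%) and 1 lower (10.4%). At day 4, HuT102 had 3 of 14 higher (9.72%) and 1 lower (12.3%), and MJ 5 of 14 higher (12.7%) and 3 lower (13.8%). MyLa had 4 of 10 higher (13.1%) and 2 lower (12.6%) at day 4. At day 8 it had 4 of 11 higher (23.2%) and 2 lower (18.0%). ID1 and ID3, inhibitors of differentiation that BMPs also induce, rose in MJ at both days and in HuT102 at day 8. ID1 in MJ at day 4 read 474, 494, 409 and 359 untreated and 1735, 1982, 1986 and 1955 treated (2.11 ± 0.25, limma adjusted p = 1.24e-09), with 2.01 ± 0.25 at day 8. In HuT102 at day 8 it read 45.0, 30.4, 127 and 145 untreated and 352, 397, 290 and 399 treated (limma adjusted p = 1.13e-09). The untreated mean was at the testing limit there, so the test was reached through the treated arrays. At day 4 it changed by 0.60 ± 0.25, not called.

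ID3 in MJ at day 8 read 613, 568, 671 and 638 untreated and 1417, 1693, 1534 and 1039 treated (1.15 ± 0.21, limma adjusted p = 1.93e-05). It also rose in MJ at day 4 (1.58) and in HuT102 (0.66 and 1.29). Every treated array in these comparisons of ID3 lay above the untreated ones. In HuT78 ID1 and ID3 had high levels, at 1205 or more and 2997 or more in every array, and were not called. In MyLa, where SMAD5 rose too, ID3 stayed at 46.9 or below and ID1 at 95.0 or below, under or about the testing limit.

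COL1A1, a collagen chain, was called higher in the 6 comparisons of HuT102, MJ and MyLa (0.53 to 2.85), with overlapping groups in MyLa at day 8. It was called lower in HuT78 (-0.81), where the groups overlapped and treated arrays 2 and 4 were its lowest. CDKN1A, the cell cycle inhibitor p21, fell in MJ (-0.73 and -0.74) and MyLa (-0.34 and -0.76) and was called higher in HuT102 at day 8 (0.22). ITGAE, the integrin CD103 of tissue-resident T cells, was called higher in MJ at day 4 (0.36), in MyLa at day 8 (0.25) and in HuT78 (0.21), and lower in MJ at day 8 (-0.29).

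**Figure D5:**
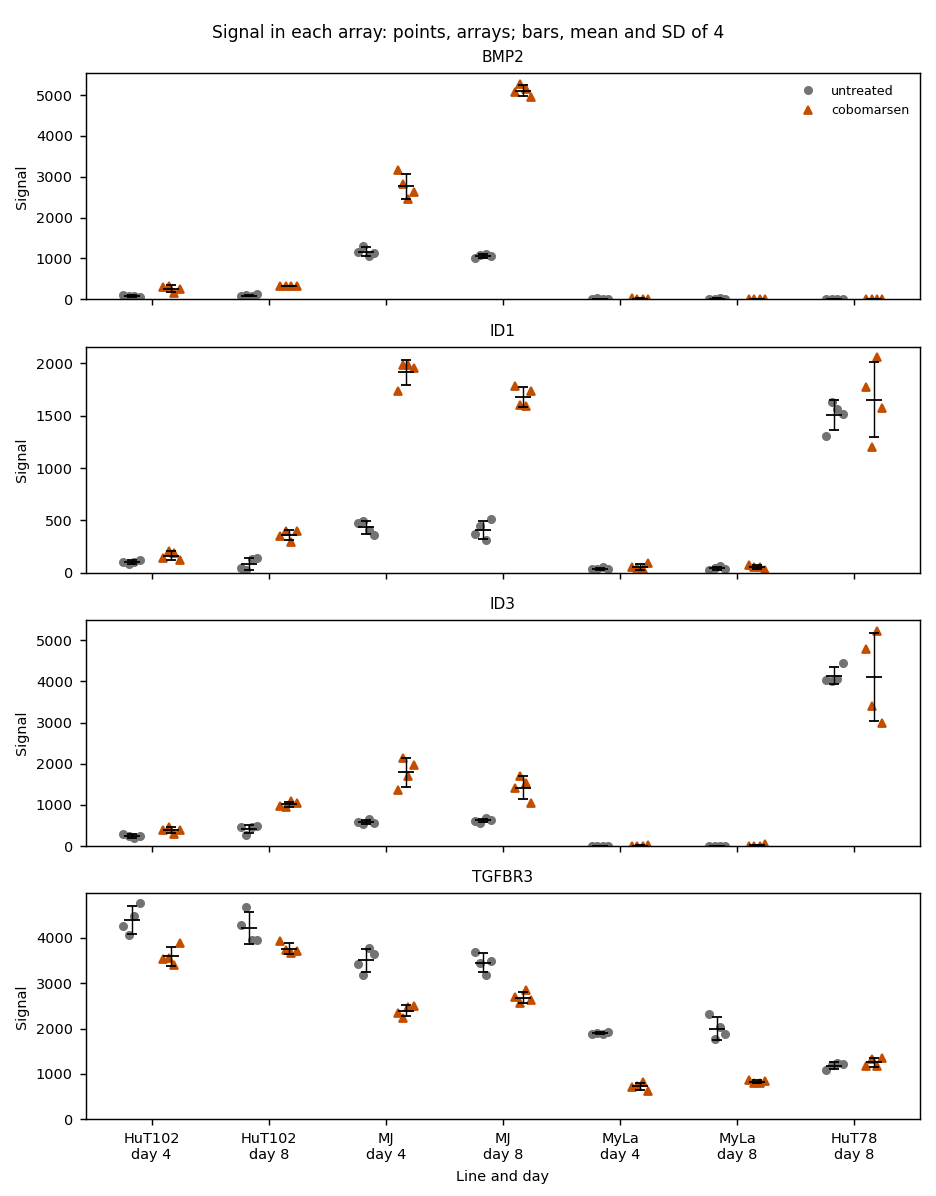
Signal (linear axis from 0) of BMP2, ID1, ID3 and TGFBR3 in each array, by line and day; grey circles are untreated arrays, orange triangles cobomarsen arrays, and bars the mean and SD of 4. BMP2 is higher in all treated arrays of HuT102 and MJ, ID1 and ID3 are higher in all treated arrays of MJ, and TGFBR3 is lower in all treated arrays of MyLa.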

How the data were processed

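RNA of 56 samples was hybridized to Affymetrix arrays, 1 array each, and the labels gave each sample's line, day and treatment. The deposited values are signal intensity made by the authors with MAS5, per the submitters' processing notes, and were not renormalized. Of 54675 probe sets, 41091 had 1 gene symbol (1801 had several, 11721 none and 62 were controls, all left out), and values were taken as log2(value + 16). limma 3.58.1 (R 4.3.3) fitted 1 model of group means to the 56 arrays (42 residual degrees of freedom, intensity trend), with two-sided tests. Benjamini-Hochberg adjustment ran over the probe sets tested in each comparison (mean over the arrays compared at or above signal 74.0) at 0.05. Genes were counted by leading probe set. The number of arrays limits the precision. No 2 arrays held identical values.

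The members and lists were chosen with earlier results of these data known. Named genes were all members, up to 5 genes of each other list called in most comparisons, and the 3 genes most like a member over group means. BMP2, ID1, ID3 and TGFBR3 were given by array after their values were seen. Steps were tested on simulated data. The alternatives changed the value added (to 1 or 64), dropped the filter or set it at the 75th percentile, and tried quantile normalization, 1 probe set per gene, only the lines compared, no trend, other probe sets, and leaving out each array. Mapping used pandas 2.3.3 in Python 3.11.15, and figures Matplotlib 3.10.9.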

Additional observations from a re-analysis of the deposited data

Results flagged for a closer look

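Of 140 groups of 4 arrays (10 members in 14 groups), 10 held an array far from the other 3 by Dixon's ratio; chance gives about 1 in 20. For SKI these were the lowest untreated arrays of HuT102 at day 8 (190.0) and of MyLa at day 4 (107.0), and for SKIL the highest treated array of MyLa at day 4 (427.6). For SMAD2 they were the lowest treated array of HuT102 at day 4 (2668) and the highest treated array of MJ at day 8 (2569). For SMAD4 they were the lowest treated array of HuT102 at day 4 (1793) and the highest untreated array of HuT78 (1146). The others were the highest untreated array of MyLa at day 8 for SMAD7 (998), the lowest treated array of MyLa at day 4 for TGFB1 (1602) and the lowest treated array of HuT78 for TGFBR1 (1912).

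The cobomarsen effect differed between day 8 and day 4 by limma's interaction term for SMAD7 in HuT102 (0.64) and MyLa (0.66) and for TGFBR1 in MyLa (-0.56). The day 8 effect differed between the 4 lines (limma moderated F-test) with adjusted p of 0.000543 for SMAD2, 9.13e-14 for SMAD3, 2.76e-05 for SMAD4, 3.48e-06 for SMAD5, 0.000322 for SMAD7, 0.000457 for SKI, 1.71e-07 for TGFBR1, 5.90e-08 for TGFBR2 and 0.00360 for TGFB1.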

How the results depend on the processing

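Of the 33 calls with cobomarsen by leading probe sets, 19 were kept under all alternatives run within that probe set and 14 were lost in at least 1; none changed sign. The 6 SMAD5 calls in HuT102, MJ and MyLa were among those kept. The 75th percentile filter took 9 calls away by leaving dim probe sets untested. With only the lines compared, the count of members called was 8 in MJ at day 4, 0 in HuT78 and, for untreated day 8 against day 4, 1 in MyLa (SMAD7). For untreated MJ that count was 1 with log2(value + 1), no filter or no trend. Leaving out 1 array gave counts of 1 to 3 in HuT78, 0 to 1 for the day difference in HuT102, 1 to 2 for untreated MJ days and 0 to 1 for untreated MyLa days. Under these alternatives the share of all tested genes was counted only for the fits printed with a share in the results. The remaining counts have no share beside them and say nothing about the members as a set. Another tested probe set had the opposite sign in 9 of 55 checks: SMAD4 1565703_at (0.12) and TGFBR1 236561_at (0.08) in HuT102 at day 8, SMAD2 226563_at in MJ at day 8 (0.90), SMAD2 203075_at (0.064), 203077_s_at (0.057), 226563_at (0.84) and 235598_at (0.16) and SMAD5 205188_s_at (-0.58) in MyLa at day 4, and SMAD2 203077_s_at (-0.021) in HuT78. The cause of the opposite signs was not tested. In 30 of the 55 checks the other probe set was called in the same direction, and in 16 it had the same sign without a call. Signal over background limits TGFBR2 in MJ, SMAD3 in the treated MJ arrays of day 8 and the dimmer probe sets. No paired analysis was possible because the labels carry no replicate number shared between groups.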
